A study of Rattus norvegicus with 9 samples.

Results

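A set of 10 genes that mark or serve alveolar macrophages was taken by name. They are Marco, Mrc1, Cd68, Msr1, Fabp4, Pparg, Csf1r, Cd163, Chi3l1 and Gpnmb. Of the 10 genes, 9 had a probe with that single gene symbol on the array, among 14497 named genes and 28826 probes in all. No probe of the table was paired with Msr1, which is not analysed here. Each of the other 9 was read by 1 probe.

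RNA of whole lung came from 7 Wistar rats, of which 3 formed the metabolic syndrome (MetS) group and 4 the control group. For 24 weeks after weaning the MetS rats were given a 30% sucrose solution in place of drinking water and the controls plain water, both with the same standard chow. All were fasted for 7 hours before death, and only the MetS rats are called male in the labels. Each animal was read on a whole-transcript Affymetrix rat gene array, and MetS animal 1 and control animal 1 were read on 2 arrays each, which were averaged. The labels give neither lavage nor sorting, so the values belong to the whole tissue, with the macrophages of the airspace, the interstitium and the vessels together. The alveolar type 2 marker Sftpc read between 13.88 and 13.91 in the 7 animals. This is close to the array maxima, 14.13 to 14.16, so the even level does not show equal amounts.

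Alveolar macrophages live on the inner surface of the air sacs, where they take up inhaled particles, microbes, dying cells and spent surfactant. Their identity depends on the cytokine GM-CSF, which is made largely by the epithelium, and on the lipid-activated nuclear receptor PPARγ, which GM-CSF induces. Scavenger receptors and lectins on their surface do the binding, lysosomal enzymes the digestion, and lipid carriers and exporters handle the fat of the surfactant. Several of the 10 genes are not theirs alone: Csf1r, Cd68 and Mrc1 mark most tissue macrophages, Cd163 marks resident macrophages of many tissues, Fabp4 and Pparg are prominent in fat cells, and Fabp4 is also made by capillary endothelium.

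The upstream sequences of 4 genes are shown because Mrc1, Cd68, Csf1r and Gpnmb had the same highest and the same lowest animal, as described below. In Gpnmb another animal was nearly level with the lowest. That of Marco is shown because it did not follow them. Windows of 250 bases before the annotated start were taken from RefSeq, assembly GRCr8, in which 8 of the 9 measured genes had an entry; Fabp4 is named only. Capitals mark the purine box GAGGAA, the core of the sites of the macrophage transcription factor PU.1, on either strand (TTCCTC on the other), and in Gpnmb also the box TCANGTGA of the MITF and TFE family on the other strand. Each window is given 5′ to 3′ on the strand of its gene.
Mrc1, chr17:82157475-82157724, plus strand: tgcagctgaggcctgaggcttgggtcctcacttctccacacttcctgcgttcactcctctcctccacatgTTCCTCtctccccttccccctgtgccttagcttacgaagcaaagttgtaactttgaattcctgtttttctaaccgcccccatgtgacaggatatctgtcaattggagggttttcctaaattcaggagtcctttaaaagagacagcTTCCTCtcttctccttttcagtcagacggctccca
Cd68, chr10:54882442-54882691, minus strand: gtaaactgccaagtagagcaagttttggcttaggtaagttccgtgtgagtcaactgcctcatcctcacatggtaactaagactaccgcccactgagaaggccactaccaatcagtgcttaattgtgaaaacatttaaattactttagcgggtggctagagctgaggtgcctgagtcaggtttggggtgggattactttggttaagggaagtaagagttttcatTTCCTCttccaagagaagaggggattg
Csf1r, chr18:56834129-56834378, plus strand: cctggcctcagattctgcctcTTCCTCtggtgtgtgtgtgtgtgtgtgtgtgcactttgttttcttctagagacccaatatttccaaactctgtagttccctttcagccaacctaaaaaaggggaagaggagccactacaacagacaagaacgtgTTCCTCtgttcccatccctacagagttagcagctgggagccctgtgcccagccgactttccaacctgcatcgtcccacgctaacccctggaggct
Gpnmb, chr4:79340878-79341127, plus strand: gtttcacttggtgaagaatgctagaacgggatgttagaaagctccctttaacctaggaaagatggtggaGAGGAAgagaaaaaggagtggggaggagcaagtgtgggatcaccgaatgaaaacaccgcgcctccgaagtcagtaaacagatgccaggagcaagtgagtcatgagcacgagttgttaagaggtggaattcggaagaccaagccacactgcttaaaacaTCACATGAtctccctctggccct
Marco, chr13:34201256-34201505, minus strand: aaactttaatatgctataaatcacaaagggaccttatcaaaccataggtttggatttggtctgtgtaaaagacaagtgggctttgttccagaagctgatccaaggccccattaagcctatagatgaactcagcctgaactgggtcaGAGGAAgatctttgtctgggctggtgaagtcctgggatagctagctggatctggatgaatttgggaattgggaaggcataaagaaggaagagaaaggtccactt

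The box GAGGAA was found, on either strand, in the windows of 6 of the 8 genes, namely Marco, Mrc1, Cd68, Pparg, Csf1r and Gpnmb, against 23.3% of all 33469 windows of this length. Marco thus shared it with the genes whose animal order it did not follow. The box TCANGTGA, which does not overlap the purine box, lay in 1 of the 8 genes, Gpnmb, against 3.34% of all windows. A box TTGCNNAA of the C/EBP type lay in 1, Pparg, against 9.22%. The direct repeat of AGGTCA with 1 base between the copies, the form that PPARγ binds, was in none of the 8 and in 0.0508% of all windows. Pparg has 2 annotated starts and was searched at both. These are matches of letters in a short window and describe no binding.

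The question was whether the macrophage genes differed between the lungs of rats with metabolic syndrome and those of controls. None of the 9 did by the test: 0 of 9 passed an adjusted p of 0.05 in limma, as did 0% of all probes, and the smallest adjusted p of any probe was 0.324. Before adjustment 0 of 9 had a p under 0.05, where 13.7% of all probes lay, and the groups overlapped for 9 of 9, where 11.7% of all probes did not overlap. Of the 9 genes, 3 read higher and 6 lower in MetS, and their median difference was -0.01 on the log2 scale, beside a median of 0.01 over all probes and 0.04 over all named genes. The spread within the groups is a further description: in 6 of 9 the 3 MetS rats covered a wider range than the 4 controls, which 26.8% of all probes did. The median range of the 9 genes was 0.63 in MetS and 0.32 in controls, against 0.18 and 0.30 over all probes. Of the probes with a mean above the 75th percentile, 36.8% had a wider range in MetS, with median ranges of 0.20 and 0.26. The trait is not particular to the 9 genes. It held for 10 of 13 lysosomal, 9 of 11 lipid handling and 8 of 11 monocyte and interstitial macrophage genes. The same was true of 4 of 5 T cell and 5 of 5 blood endothelial genes, and of 4 of 9 uptake and scavenger receptors. It held for only 3 of 12 growth factor and transcription factor, 2 of 7 neutrophil and 0 of 5 adipocyte genes. The range was looked at after the values had been seen and was not tested. In whole tissue, fewer cells of a type and less RNA per cell cannot be told apart.

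**Figure D1:**
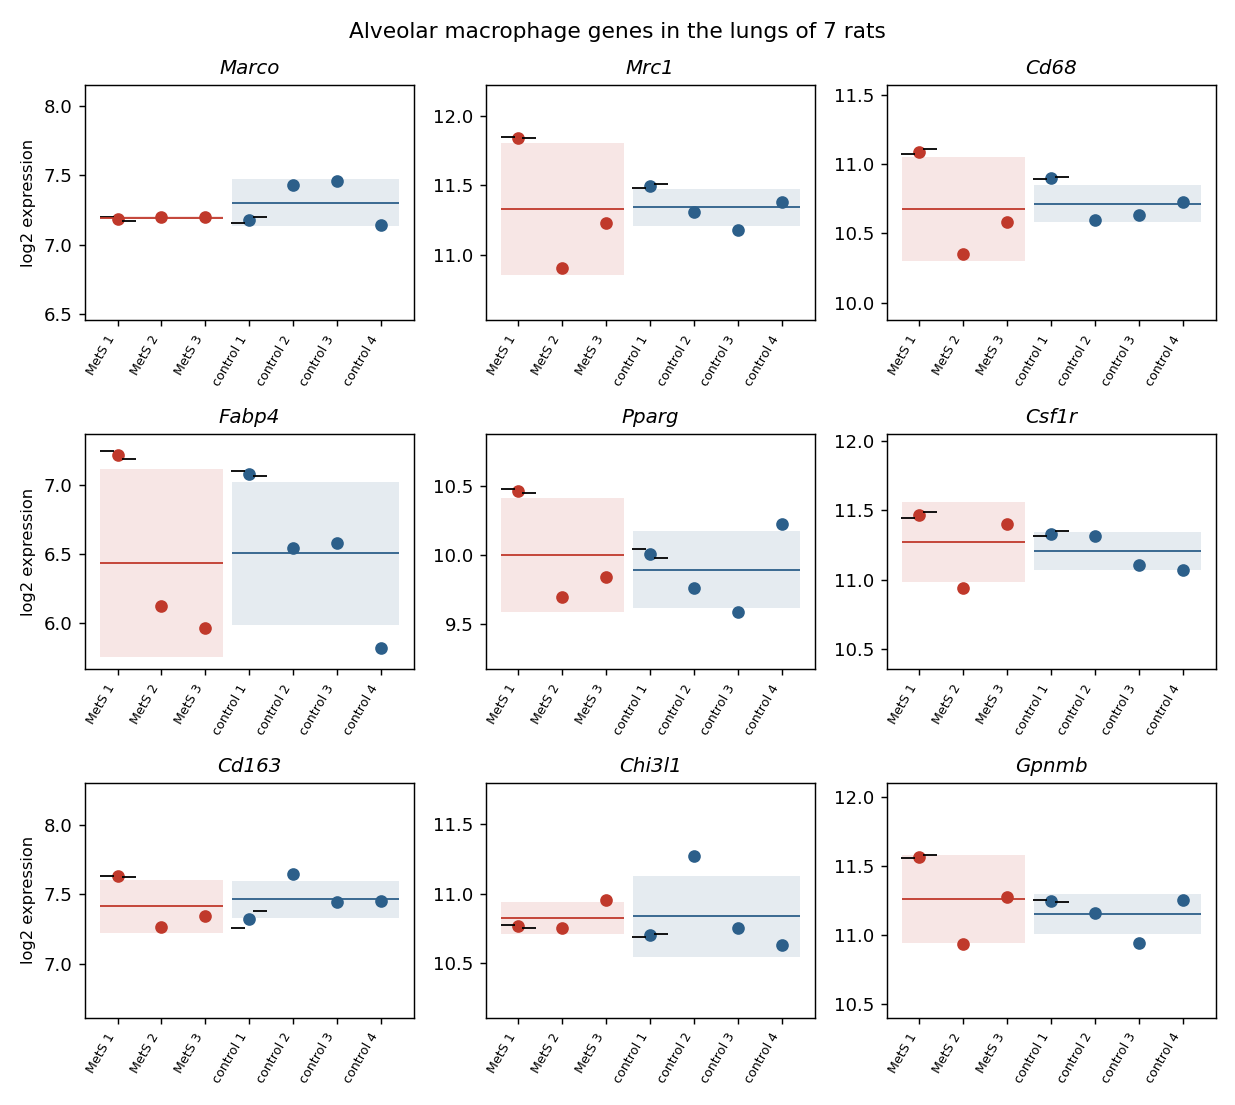
Log2 expression (y axis) of the 9 measured alveolar macrophage genes in each animal (x axis), with MetS in red and controls in blue. Points are animals, lines are group means, and shaded bands are the mean ± SD (n = 3 and 4). Black dashes are the 2 arrays of MetS animal 1 and of control animal 1, and every panel spans the same height. In Mrc1, Cd68 and Gpnmb MetS animal 1 is the highest and MetS animal 2 the lowest point. In Gpnmb control 3 is nearly level with MetS animal 2, both at 10.94.

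Among the receptors for uptake, Mrc1 codes for the mannose receptor, a lectin that takes up glycoproteins and microbes. It read 11.85, 10.91 and 11.23 in MetS animals 1 to 3 and 11.49, 11.31, 11.18 and 11.38 in controls 1 to 4, on the log2 scale as all levels here. The highest and the lowest of the 7 animals were thus both MetS rats, 1.92-fold apart, and the controls lay between them. The group means were 11.33 ± 0.48 (SD, n = 3) and 11.34 ± 0.13 (SD, n = 4), a difference of -0.01 with a 95% interval from -0.50 to 0.47 (limma, adjusted p = 0.98).

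Marco, a scavenger receptor with a collagen-like stalk that binds bacteria and dust, is among the genes most typical of the alveolar macrophage. It read 7.19, 7.20 and 7.20 in the MetS rats and 7.18, 7.43, 7.46 and 7.14 in the controls. Every one of these values lay below the array medians of 7.64 to 7.69. Controls 2 and 3 were high and the other 5 animals lay within 0.1 of each other, so that the groups overlapped. The means were 7.20 ± 0.01 (SD, n = 3) and 7.30 ± 0.17 (SD, n = 4), and the difference of -0.11 had a 95% interval from -0.33 to 0.12 (limma, adjusted p = 0.606). The deposited value 7.1999 stood on 4 of the 9 arrays for Marco, in both groups. A value standing on 4 or more arrays occurred in 8.78% of all probes, and the small SD of Marco in MetS holds such a repeat. With array SD as a term of the model the difference of Marco turned to 0.11, and without controls 2 and 3 it turned to 0.04; neither passed the test.

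Cd163, the receptor that clears haemoglobin bound to haptoglobin, read 7.63, 7.27 and 7.34 in MetS and 7.32, 7.65, 7.44 and 7.45 in controls. MetS animal 1 and control 2 were the high ones, and the groups overlapped. The difference was -0.05 with a 95% interval from -0.32 to 0.21 (limma, adjusted p = 0.84), which in fold runs from 0.803 to 1.16.

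Csf1r, the receptor for the macrophage growth factors CSF1 and IL-34, read 11.47, 10.94 and 11.40 in MetS and 11.33, 11.31, 11.11 and 11.07 in controls. MetS animals 1 and 3 were the highest and MetS animal 2 the lowest of all 7. The difference was 0.06 with a 95% interval from -0.27 to 0.40 (limma, adjusted p = 0.844). Csf1r thus shared its ends with Mrc1, although MetS animal 3 stood nearer the top in it.

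Pparg codes for the nuclear receptor that switches on lipid handling in these cells. It read 10.46, 9.70 and 9.84 in MetS and 10.01, 9.76, 9.59 and 10.22 in controls. MetS animal 1 was again the highest, followed by control 4, and control 3 was the lowest. The means were 10.00 ± 0.41 (SD, n = 3) and 9.90 ± 0.28 (SD, n = 4), with a difference of 0.10 and a 95% interval from -0.41 to 0.62 (limma, adjusted p = 0.832). With array SD as a term of the model the difference turned to -0.38, and without controls 2 and 3 it turned to -0.12; neither passed the test.

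Fabp4, a carrier of fatty acids inside the cell and a known target of PPARγ, had the widest spread of the 9 genes. It read 7.22, 6.13 and 5.97 in MetS and 7.08, 6.54, 6.58 and 5.82 in controls. Animal 1 of each group stood high, and MetS animals 2 and 3 and control 4 stood low, so both groups covered nearly the same range, 2.38-fold in MetS and 2.39-fold in controls. The 95% interval of the difference, from -0.95 to 0.81, runs in fold from 0.517 to 1.75, around a difference of -0.07 (limma, adjusted p = 0.938). It was the 1 gene of the 9 whose mean lay below the 25th percentile of all probe means, 6.481. MetS animals 2 and 3 and control 4 read below that level, so their values do not show that Fabp4 RNA was measurably present.

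Cd68, a glycoprotein of the lysosome membrane used as a stain for macrophages, read 11.09, 10.35 and 10.59 in MetS and 10.90, 10.60, 10.63 and 10.73 in controls. Its order of animals was close to that of Mrc1, with MetS animal 1 at the top, control 1 next and MetS animal 2 at the bottom. The difference was -0.04 with a 95% interval from -0.44 to 0.37 (limma, adjusted p = 0.926). Gpnmb, a membrane glycoprotein that rises in macrophages loaded with lipid, read 11.57, 10.94 and 11.28 in MetS and 11.25, 11.16, 10.94 and 11.26 in controls. MetS animal 1 was the highest, and MetS animal 2 and control 3 the lowest, within 0.01 of each other. The difference was 0.11 with a 95% interval from -0.25 to 0.47 (limma, adjusted p = 0.75).

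Chi3l1, a secreted chitinase-like lectin without enzyme activity, had another order of animals. It read 10.76, 10.76 and 10.96 in MetS and 10.70, 11.27, 10.75 and 10.63 in controls. Control 2 stood above the rest, and here MetS animals 1 and 2 had nearly the same level. The difference was -0.01 with a 95% interval from -0.38 to 0.36 (limma, adjusted p = 0.974).

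**Figure D2:**
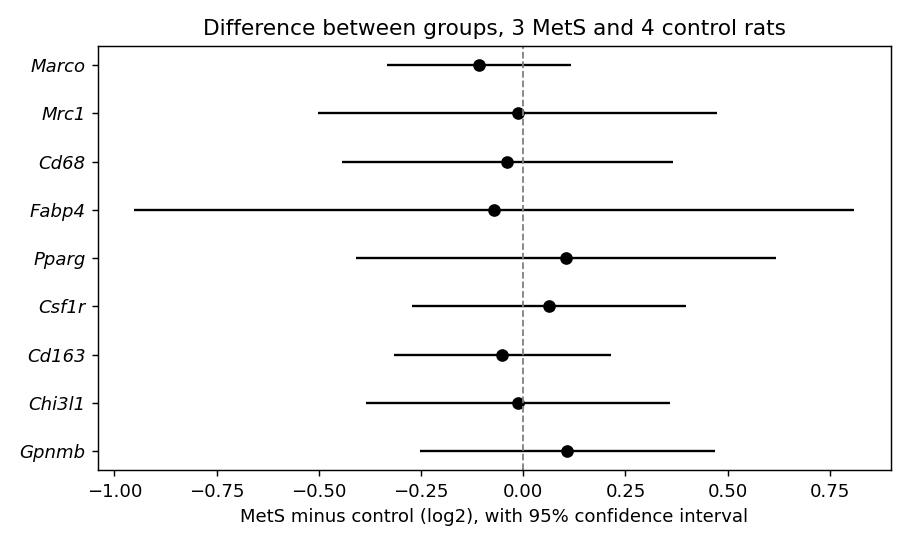
Difference of the group means (MetS minus control, log2, x axis) for the 9 measured genes (y axis), with 95% confidence intervals of the limma fit as lines. All 9 intervals hold 0, and that of Fabp4 is the widest, from -0.95 to 0.81.

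The intervals bound what these animals could show. For Marco, Cd163, Csf1r, Chi3l1, Cd68, Mrc1 and Gpnmb they lie between 0.707-fold and 1.39-fold, for Pparg from 0.754-fold to 1.53-fold and for Fabp4 from 0.517-fold to 1.75-fold. A miss of the threshold does not show that the groups were alike. Every one of the 9 differences changed its sign in at least 1 of 18 other ways of processing or leaving out animals, and 0 of the 9 passed the test in any of them.

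The 9 genes were next set side by side across the animals, a pattern that was noticed in the values and is given without a test. MetS animal 1 was the highest of the 7 animals for 6 of 9 genes, Mrc1, Cd68, Fabp4, Pparg, Csf1r and Gpnmb. Over all probes MetS animal 1 was the highest in 17.5%, and in 31.4% of the brighter probes, those with a mean above the 75th percentile. MetS animal 2 was the lowest for 5 of the 9, Mrc1, Cd68, Csf1r, Gpnmb and Cd163, against 11.1% of all probes. In Gpnmb control 3 was nearly level with it, both at 10.94. MetS animal 1 stood above MetS animal 2 by at least 0.5 on the log2 scale (1.41-fold) in 6 of 9 genes, against 2.11% of all probes. These 2 rats were picked because they stood at the ends for these genes, so the share describes them and supports nothing more.

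The high level of MetS animal 1 stood on both of its arrays. Mrc1 read 11.85 and 11.84, Pparg 10.48 and 10.45, and Fabp4 7.24 and 7.19 on them. The 2 arrays of this rat differed by up to 0.05 over the 9 genes, and those of control 1 by up to 0.12, beside the 0.94 between MetS animals 1 and 2 in Mrc1. The 2 arrays of a rat may come from 1 RNA extract, since the labels do not say at which step they were divided. After another quantile normalization MetS animal 1 was still the highest for 6 of the 9 and lay at least 0.5 above MetS animal 2 for 5.

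Over the 7 animals, Mrc1 and Cd68 had a Pearson r of 0.98, Mrc1 and Gpnmb 0.91, Pparg and Gpnmb 0.90, Mrc1 and Pparg 0.86 and Mrc1 and Fabp4 0.67. Marco had an r of -0.26 with Mrc1 and -0.65 with Pparg, and Chi3l1 had -0.12 with Mrc1. These values describe 7 points that share their arrays, with MetS animals 1 and 2 often at the ends. Mrc1, Cd68, Pparg and Gpnmb varied together from rat to rat, whereas Marco and Chi3l1, which are also called alveolar macrophage genes, did not rise and fall with them. Marco read only 7.14 to 7.46, below the array medians of 7.64 to 7.69, while Chi3l1 read 10.63 to 11.27. The part of the low level of Marco in this was not tested.

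By their pattern over the 7 animals, the genes most like the mean of the 9 were sought among 11990 named genes above the 25th percentile of probe means. They were Xrcc5 (Pearson r of 0.97), the sialic acid lectin Siglec1 (0.97), the retinol esterifying enzyme gene Lrat (0.96), Ifi27 (0.94) and Stom (0.94). Lrat read 8.73, 7.74 and 7.99 in MetS and 8.35, 8.29, 8.03 and 8.26 in controls. MetS animal 1 was again the highest and MetS animal 2 the lowest. These genes were picked for this likeness, so their r is no test.

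**Figure D3:**
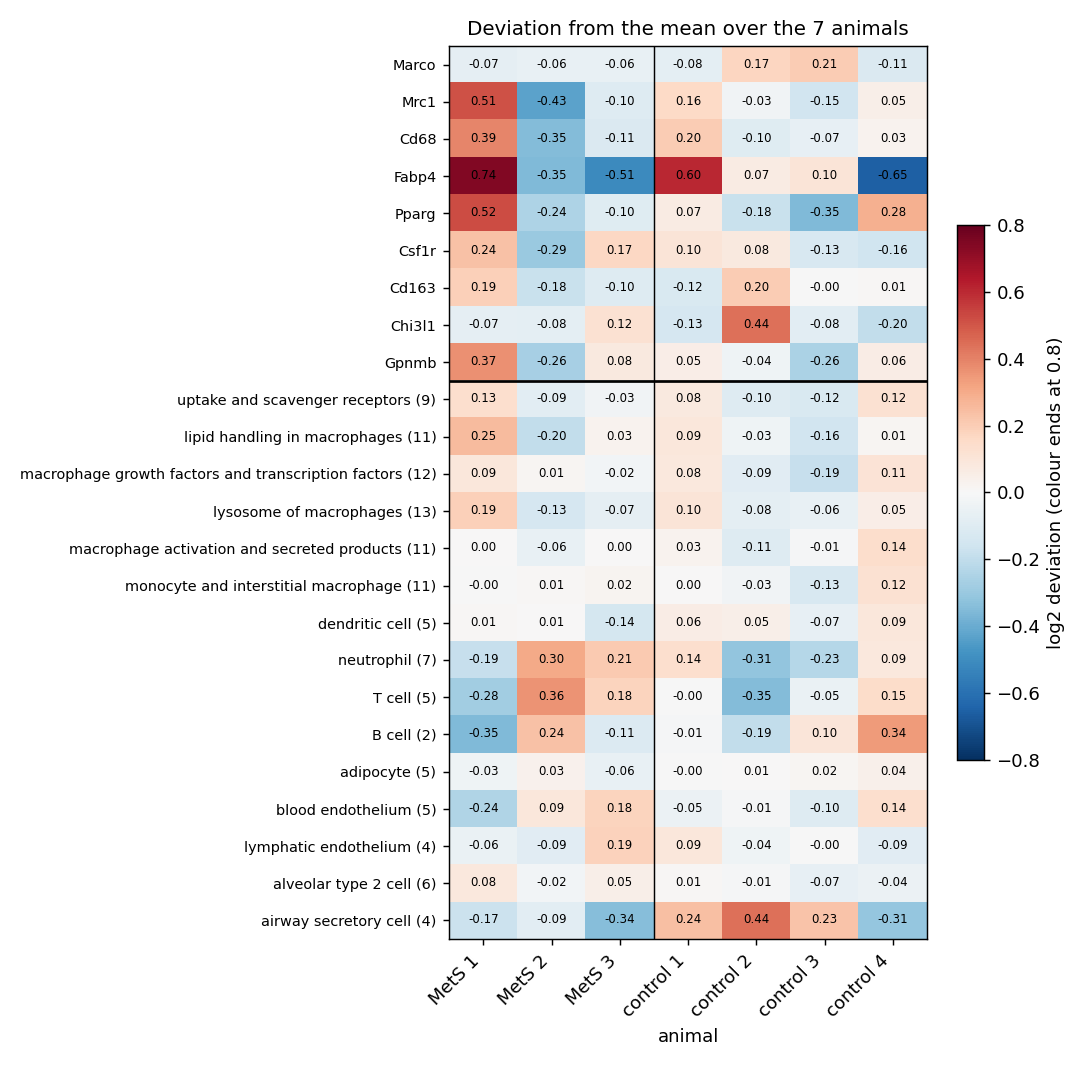
Deviation of each animal (columns) from the mean over the 7 animals, in log2 units, for the 9 measured genes (upper rows) and for the mean of each other gene list with its number of measured genes (lower rows). In Mrc1, Cd68, Pparg and Gpnmb and in the lists of lipid handling and lysosome MetS animal 1 is above and MetS animal 2 below the mean, and in the neutrophil, T cell and B cell lists it is the other way round.

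The other genes of the same biology were read in 5 lists. Of 9 measured uptake and scavenger receptors 0 passed the test, 0 had an unadjusted p under 0.05, and the median difference between the groups was 0.02. Colec12, a collectin of the scavenger family, read 10.48 ± 0.32 (SD, n = 3) in MetS and 10.23 ± 0.22 (SD, n = 4) in controls. Clec7a, the receptor for fungal glucans, read 12.57 ± 0.28 and 12.71 ± 0.09, and the fatty acid and lipoprotein receptor Cd36 read 11.54 ± 0.34 and 11.67 ± 0.21. Between MetS animals 1 and 2 the receptors differed both ways, with 6 of 9 higher in animal 1 and Cd36 higher by 0.56 and Clec7a by 0.55. Over all probes, 12991 of 28826 were higher in animal 1 than in animal 2. Among the brighter probes, those with a mean above the 75th percentile, 4142 of 7207 were. Such counts are to be read against both shares.

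Of 11 measured genes of lipid handling 0 passed and 0 had an unadjusted p under 0.05, with a median group difference of 0.01. Ch25h, which makes an oxysterol from cholesterol, read 7.73 ± 0.40 (SD, n = 3) against 7.41 ± 0.25 (SD, n = 4), and Soat1, which stores cholesterol as ester, 10.62 ± 0.19 against 10.49 ± 0.09. Between MetS animals 1 and 2 this list stood in the order of Mrc1: 10 of 11 genes were higher in animal 1, 6 of them by at least 0.5. They included the lysosomal lipase Lipa (0.71), the lipoprotein lipase gene Lpl (0.62), the cholesterol exporter Abcg1 (0.56) and the lipid droplet coat Plin2 (0.52). The nuclear receptor partner Rxra, at -0.06, was the exception.

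Of 12 measured growth factors, their receptors and transcription factors 0 passed and 0 had an unadjusted p under 0.05, and the median group difference was 0.07. The GM-CSF receptor subunits Csf2ra and Csf2rb read 9.40 ± 0.24 against 9.46 ± 0.15 and 8.70 ± 0.18 against 8.65 ± 0.25. Spi1, the gene of PU.1, read 9.53 ± 0.14 against 9.56 ± 0.18. Il34, a ligand of the receptor encoded by Csf1r, read 7.61 ± 0.14 against 7.36 ± 0.18, and the transcription factor Bhlhe40 read 10.75 ± 0.09 against 10.94 ± 0.25. In each of the 5 the groups overlapped. Between MetS animals 1 and 2 the differences were 0.23 for Spi1 and -0.23 for Csf2rb, against 0.46 for Csf2ra and 0.83 for Bhlhe41, a transcription factor of alveolar macrophages. Of the 12, 8 were higher in animal 1, 1 of them by at least 0.5.

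Of 13 measured lysosomal genes 0 passed and 0 had an unadjusted p under 0.05, with a median group difference of 0.03. The protease gene Ctsz read 10.25 ± 0.23 (SD, n = 3) against 10.41 ± 0.10 (SD, n = 4), and the acid phosphatase gene Acp5 9.53 ± 0.34 against 9.76 ± 0.23. Between MetS animals 1 and 2, 10 of 13 were higher in animal 1, by 0.64 for Acp5, 0.60 for the cathepsin gene Ctss and 0.57 for the galectin gene Lgals3. Lyz2, the lysozyme of macrophages and type 2 cells, differed by -0.08. Its levels of 13.57 and 13.65 in these 2 rats were near the array maxima, so this small difference does not show equal amounts.

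Of 11 secreted products and activation genes 0 passed over all probes, but 2 had an unadjusted p under 0.05, both lower in MetS, a share of the list close to the 13.7% of all probes. Mmp12, the elastase of macrophages, read 7.36, 7.76 and 7.00 in MetS and 7.996, 7.75, 7.75 and 8.43 in controls. MetS animals 1 and 3 lay below all controls, and MetS animal 2 was level with controls 2 and 3. The difference was -0.61, with a 95% interval from -1.14 to -0.08 (limma, adjusted p = 0.335). It was -0.59 after another quantile normalization, -1.07 with array SD as a term and -0.84 without controls 2 and 3, and none of these passed the test.

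Il6, an inflammatory cytokine, read 5.11, 5.14 and 5.09 in MetS and 5.42, 5.52, 5.68 and 5.19 in controls, with no overlap. All of these values lay below 6.481, the 25th percentile of probe means, so they do not show that Il6 RNA was measurably present. The difference of -0.34 (limma, adjusted p = 0.324) shrank to -0.08 after another quantile normalization and likewise with array SD as a term of the model. Retnla, a resistin-like protein of activated macrophages and airway cells that was singled out after its values were seen, read 12.17, 10.47 and 11.72 in MetS and 11.11, 10.29, 10.63 and 10.24 in controls. MetS animals 1 and 3 were above all controls, and MetS animal 2 lay among them.

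**Figure D4:**
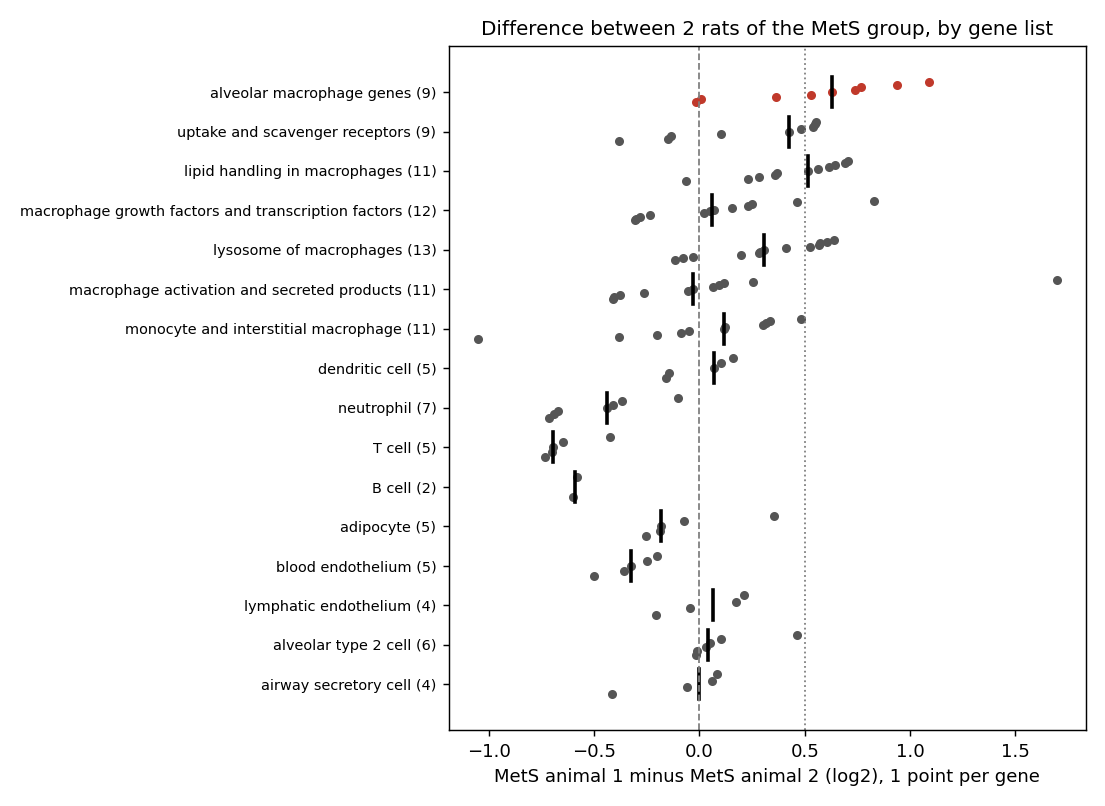
Level of MetS animal 1 minus that of MetS animal 2 (log2, x axis) for each measured gene (points) of the alveolar macrophage set and the 15 other lists (y axis, number of genes in brackets), with black bars at the list medians, a dashed line at 0 and a dotted line at 0.5. The median is 0.63 for the alveolar macrophage genes in red and 0.52 for lipid handling, but -0.44 for neutrophil and -0.69 for T cell genes.

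Several markers of other cells stood in the opposite order in the same 2 rats. In MetS animals 1 to 3 the mean level of 5 T cell markers was 7.97, 8.61 and 8.43, with 7.90 to 8.40 in the controls, and that of 7 neutrophil markers was 8.52, 9.002 and 8.91, with 8.39 to 8.84 in the controls. The mean of 5 blood endothelial markers was 10.70, 11.02 and 11.11, with 10.83 to 11.07 in the controls. All 5 T cell, 7 neutrophil, 2 B cell and 5 endothelial markers were lower in MetS animal 1 than in MetS animal 2. The mean of 6 type 2 cell markers was 12.90 and 12.79 in these rats, and 1 of the 6, Lamp3, read 13.07 and 12.60. The other 5 differed by -0.02 to 0.10. Of these, Sftpa1, Sftpb and Sftpc read 13.51 to 13.89 in the 2 rats, near the array maxima, so their even level does not show equal amounts. The part of cell composition in the spread of the macrophage genes was not tested.

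Between the groups, the means of the T cell, neutrophil, B cell and endothelial lists overlapped. The T cell list read between 7.97 and 8.61 in MetS and the neutrophil list between 8.52 and 9.002, and 0 genes of either had an unadjusted p under 0.05. Cxcr2, a neutrophil chemokine receptor, read 9.42 ± 0.21 (SD, n = 3) against 9.02 ± 0.31 (SD, n = 4), S100a9 read 11.05 ± 0.22 against 10.87 ± 0.07, and the lymphocyte adhesion gene Cd2 read 8.11 ± 0.40 against 7.76 ± 0.24, with Cd3d at 7.44 ± 0.23 against 7.25 ± 0.21. The B cell gene Cd79b read 9.32 ± 0.30 against 9.62 ± 0.19 and Ms4a1 8.12 ± 0.29 against 8.08 ± 0.28.

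Of 11 markers of monocytes and interstitial macrophages 0 had an unadjusted p under 0.05. The complement gene C1qa read 8.41 ± 0.21 (SD, n = 3) against 8.42 ± 0.19 (SD, n = 4), and Adgre1, the F4/80 antigen, 8.62 ± 0.09 against 8.79 ± 0.08. Cx3cr1, the fractalkine receptor of patrolling monocytes, read 8.0004, 9.05 and 9.63 in MetS but only 8.32 to 8.38 in the controls. MetS animal 1 was the lowest of the 7 in Cx3cr1, and the 2 other MetS rats were above all controls. Other markers of this list went both ways. MetS animal 1 was the highest of the 7 in 5 of the 11, C1qa, C1qb, C1qc, Cd14 and Aif1. Control 4 was nearly level with it in C1qb, at 8.34 against 8.35, and in C1qc, at 8.56 in both. MetS animal 1 stood above MetS animal 2 in 6 of the 11, by 0.48 for C1qb, 0.34 for Cd14 and 0.32 for Aif1. As in Cx3cr1, it stood below MetS animal 2 in Ccr2 (-0.38), Itgam (-0.20), Adgre1 (-0.09) and Cd74 (-0.05). The mean of this whole list lay between 8.92 and 8.94 in MetS and between 8.79 and 9.04 in controls. Of 5 dendritic cell markers 1 had an unadjusted p under 0.05: Xcr1 read 7.61, 7.51 and 7.19 in MetS against 7.81, 7.79, 7.66 and 7.79 in controls, with no overlap, a difference of -0.32 that did not pass (limma, adjusted p = 0.324). Ccr7 read 8.58 ± 0.10 against 8.66 ± 0.12.

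Markers of fat cells, which also make Fabp4 and Pparg, were read as well. Adipoq, the adiponectin gene, read between 6.71 and 6.89 in MetS and between 6.66 and 6.97 in controls. The mean of 5 adipocyte markers lay between 7.17 and 7.27 in MetS and between 7.23 and 7.27 in controls, and Plin1 and Lep read 7.02 ± 0.13 against 6.92 ± 0.16 and 6.87 ± 0.04 against 7.07 ± 0.21. Between MetS animals 1 and 2, 4 of the 5 adipocyte markers were lower in animal 1, with differences from -0.25 for Plin1 to -0.07 for Lep, and Cidec, a protein of the lipid droplet, was higher, at 8.18 against 7.83. Of the endothelial markers, Pecam1 read 11.29 in MetS animal 1 and 11.65 in MetS animal 2, and Cdh5 10.78 and 11.03. Fabp4 differed by 1.09 between these rats, and the part of fat cells or endothelium in it was not tested.

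Mrc1 is also made by lymphatic endothelium, whose markers Prox1 and Flt4 read 6.11 ± 0.12 (SD, n = 3) against 6.21 ± 0.15 (SD, n = 4) and 7.87 ± 0.16 against 7.73 ± 0.05. The mean over 4 markers was 9.35, 9.32 and 9.59 in the MetS rats. That mean also holds Lyve1, at 10.75 ± 0.48 against 10.69 ± 0.28, and Pdpn, at 12.94 ± 0.09 against 12.95 ± 0.07. In whole tissue it cannot tell lymphatic endothelium from other cells that make these genes. Of the lung epithelium, Sftpd read 12.18 ± 0.06 against 11.95 ± 0.16, with no overlap but no call (limma, adjusted p = 0.363), and Abca3 10.89 ± 0.04 against 10.81 ± 0.06. Of the airway secretory genes Scgb3a1 read 10.18 ± 0.24 against 11.47 ± 0.91 (limma, adjusted p = 0.33) and Bpifa1 5.58 ± 0.09 against 5.72 ± 0.14.

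The arrays also differed in the spread of all their values. Their SD was 1.93, 1.90 and 1.88 in MetS animals 1 to 3 and 1.85, 1.77, 1.76 and 1.88 in controls 1 to 4. MetS animals 1 and 2, which stood at opposite ends for Mrc1, Cd68 and Gpnmb, had the 2 largest SDs. Controls 2 and 3, which had the smallest, were the 2 highest for Marco. The part of array spread in these orders was not tested.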

How the data were processed

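Per the labels' protocols, lung RNA was isolated with Trizol, accepted at an RNA integrity number of 6 or more, and 50 ng of it labelled. The authors deposited log2 expression values, 1 per transcript cluster (called a probe) and array. The submitters' processing notes name R 2.11.0, RMA and limma, with no role or order. The build behind the array's annotation was not given in the sources used here. Array medians lay between 7.64 and 7.69, and the number of arrays limits the precision.

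The 2 arrays of MetS animal 1 and of control 1 were averaged, so that n counts animals. MetS minus control was fitted over all 28826 probes with limma 3.58.1 (lmFit, then eBayes; R 4.3.3), and p-values were Benjamini-Hochberg adjusted over all probes (threshold 0.05). Levels, ranges and counts were computed with pandas 2.3.3 and numpy 2.4.6 in Python 3.11.15, figures with matplotlib 3.10.9. The fit was tested on simulated data.

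Gene names came from the platform annotation, with symbols updated by gene identifier through RefSeq: 15209 probes had 1 symbol, 306 several and 13311 none. Of the 15209, 15178 matched a RefSeq gene. The 10 genes and the 15 other lists were chosen with earlier results of these data known. Of each other list the 2 genes with the smallest unadjusted p were named, and 8 genes whatever their value. Bhlhe41, Retnla, Rxra, Lipa, Lpl, Abcg1, Plin2, Ctss, Lgals3 and Lyz2 were named after their values were seen. So were C1qb, C1qc, Cd14, Aif1, Ccr2, Itgam, Cd74, Lamp3, Sftpa1, Sftpb and Cidec. Lyve1 and Pdpn were named to complete the list of lymphatic markers. The array SD that enters 1 alternative is the SD of an animal's values over all probes. Alternatives were other arrays, normalizations, filters, weights, moderation, covariates and left-out animals.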

Additional observations from a re-analysis of the deposited data

Results flagged for a closer look

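Among the 4 controls, 1 animal lay far from the others for 2 of the genes named, by the ratio of its gap to the nearest animal over the group's whole range. C1qa read 8.14 in control 3, with a ratio of 0.868, and Xcr1 read 7.66 in control 3, with a ratio of 0.873. Both ratios exceed the critical value of Dixon's test for 4 animals, and 62 groups of values were looked at, of which chance alone would pass about 1 in 20. None of the 9 alveolar macrophage genes passed it, although Chi3l1 stood at 11.27 in control 2 and at 10.63 to 10.75 in the other controls.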

How the results depend on the processing

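No call on an alveolar macrophage gene was made under any of 18 alternatives, and the smallest adjusted p of a gene of the set in any of them was 0.333. Of 161 recomputed differences 31 turned their sign and 130 kept it. Turned were Mrc1 at 0.0012 with all 9 arrays and the animal as a random block, Fabp4 at 0.0729 after quantile normalization, and Pparg at -0.0250, Csf1r at -0.0289 and Chi3l1 at 0.0200 with array weights. With array SD as a term of the model Marco turned to 0.11, Pparg to -0.38, Chi3l1 to 0.26 and Gpnmb to -0.11, and without controls 2 and 3 Marco turned to 0.0359, Pparg to -0.12, Cd163 to 0.0269 and Chi3l1 to 0.16. The cause was not tested. Leaving out 1 animal at a time, the difference ran from -0.27 to 0.20 for Mrc1, from -0.25 to 0.12 for Cd68, from -0.46 to 0.16 for Fabp4, from -0.13 to 0.26 for Pparg, from -0.0362 to 0.23 for Csf1r, from -0.16 to 0.0216 for Cd163, from -0.0816 to 0.13 for Chi3l1 and from -0.0461 to 0.27 for Gpnmb. The median difference of the 9 genes lay between -0.13 without MetS animal 1 and 0.12 without MetS animal 2. With the replicate number as a block (a replicate block on animals 1 to 3 of each group), 2017 probes passed where 0 passed without it, but 0 of the 9 genes did. That fit also leaves out control 4; without control 4 alone 0 probes passed, the smallest adjusted p in limma went from 0.324 to 0.0522, and 6180 probes had an unadjusted p under 0.05, against 3959 with all animals and 6747 with the block. Same-numbered animals deviated from their group means with correlations of 0.271, -0.0719 and 0.298. No differently numbered animals were compared, so these values cannot decide whether the numbers are pairs. The main fit treated the animals as unpaired. The filter on dim probes left out Fabp4. Each gene had 1 probe, so averaging probes changed nothing and was not run.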
